A study of Capra hircus with 3 samples.

Results

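TGFB2 and INHBA are genes for secreted ligands of the transforming growth factor beta superfamily. They were taken by symbol, with earlier results of these data known. They are 2 of the 16739 genes in a single-cell table of fetal goat dorsal skin. The study sampled goat fetuses (Capra hircus) of the breed Northern Shaanxi White Cashmere Goat on embryonic days 60, 90 and 120 (E60, E90 and E120), which its design text calls the stages of hair follicle induction, organogenesis and cytodifferentiation. Each stage was 1 droplet library of 3′ RNA, with cells of at least 2 fetuses pooled, and no stage had a replicate. E60 and E90 skin was dissociated whole with collagenase IV and a pipette tip, whereas at E120 follicles were first picked out of collagenase-treated skin and then dissociated with TrypLE, so for E120 the stage and the preparation cannot be told apart. No genotype, treatment or sort beyond this was labelled.

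TGFB2 encodes a latent cytokine that is secreted bound to its propeptide and to latent TGF-beta binding proteins, and that signals through the receptors TGFBR2 and TGFBR1, with TGFBR3 (betaglycan) presenting it. INHBA encodes the beta A subunit, whose dimer is activin A. Activin signals through ACVR2A or ACVR2B with ACVR1B, and follistatin (FST) traps it outside the cell. Both branches end on SMAD2, SMAD3 and SMAD4. In mammalian skin, TGFB2 is known for its part in the downgrowth of follicles, and activin A for a mesenchymal signal to the follicle epithelium.

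Levels are summed unique molecular identifiers (UMIs, counted molecules) per 1000000 UMIs of the same cells (CPM). All intervals are exact 95% intervals, Poisson for levels and binomial for shares, and cover counting error only. With 1 library per stage no test was possible, no p-value is given, and the spread between fetuses is unknown. The libraries held 6849 cells at E60, 6931 at E90 and 6896 at E120, with median depths of 8579, 3714 and 13064 UMIs per cell. E90 was the shallowest and had the highest median mitochondrial share, 11.1% against 4.52% at E60 and 5.26% at E120. Libraries shared 9 to 13 cell barcodes in each pair.

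Free RNA gives low counts in cells that do not make a transcript. Levels of TGFB2 and INHBA are therefore set beside those in clusters of blood cells of the same library (myeloid-like, mast-like and erythroid-like clusters, together called blood-like here). These were myeloid-like and erythroid-like at E60, erythroid-like and mast-like at E90, and mast-like and myeloid-like at E120. TGFB2 measured 5.84 CPM (2.67 to 11.1, 149 cells) in blood-like cells at E60, 79.9 CPM (61.4 to 102, 196 cells) at E90 and 1.69 CPM (0.0429 to 9.43, 119 cells) at E120. INHBA measured 17.5 CPM (11.5 to 25.5) there at E60 and 67.2 CPM (50.3 to 87.9) at E90, and had 0 UMIs at E120, where the interval reached 6.24 CPM. Within the E60 blood-like cells, the 30 erythroid-like cells alone measured 22.4 CPM (9.66 to 44.1) for TGFB2 and 47.5 CPM (27.7 to 76.1) for INHBA, so E60 levels below these limits are read with caution. The E90 blood-like cells also carried 15 of 15 listed epithelial markers, summing to 3823 CPM, and 10 of 11 listed dermal markers, summing to 3915 CPM. The E60 blood-like cells carried 11 of 11 dermal markers, summing to 4280 CPM. In the E90 library a level of either gene of about 70 to 80 CPM was therefore found even in cells that should lack it, and of 25 E90 clusters described below 19 overlapped the blood-like interval for TGFB2 and 13 for INHBA. For INHBA 5 clusters lay below it, down to 12.5 CPM.

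Over the whole libraries both genes were highest at E90 and lowest at E120. TGFB2 measured 32.7 CPM (31.4 to 34.1, 2129 UMIs) at E60, 96.5 CPM (93.1 to 100.1, 2923 UMIs) at E90 and 9.51 CPM (8.89 to 10.2, 888 UMIs) at E120. INHBA measured 48.2 CPM (46.5 to 49.9, 3135 UMIs) at E60, 95.9 CPM (92.5 to 99.5, 2904 UMIs) at E90 and 7.77 CPM (7.22 to 8.36, 726 UMIs) at E120. For neither gene did the intervals of any pair of stages overlap, but the E90 levels were 1.21 times (TGFB2) and 1.43 times (INHBA) the blood-like level of that library. Among all genes of the table, ranked by CPM within a library, TGFB2 stood at percentile 84.1, 93.8 and 69.4 at the successive stages and INHBA at 88.1, 93.8 and 66.9.

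On the scale of the log2 ratio of CPM + 1, TGFB2 differed by 1.53 from E60 to E90, by -3.21 from E90 to E120 and by -1.68 from E60 to E120. INHBA differed by 0.98, -3.47 and -2.49 in the same comparisons. Among all genes that reached 10 CPM at either stage, 21.3% were at least 2-fold higher at E90 than at E60, which TGFB2 was and INHBA, just short of that fold, was not. Under a stricter filter on cells (1000 or more genes, mitochondrial share no higher than 10%), which kept 2756 of the 6931 E90 cells, INHBA passed it with a log2 ratio of 1.20. At least 2-fold lower were 24.2% of genes from E90 to E120 and 21.5% from E60 to E120, and both members were among them. Scaling by the median of ratios instead of the total moved the median over all genes from 0.13 to -0.32 for E60 to E90 and from -0.24 to 0.21 for E90 to E120. Relative to that median, TGFB2 stood at 1.40 under the first scaling and 1.39 under the second for E60 to E90, and at -2.97 and -2.98 for E90 to E120. INHBA stood at 0.85 and 0.84, and at -3.22 and -3.23.

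The share of cells with at least 1 UMI followed depth as well as level. For TGFB2 it was 16.3% of cells at E60, 30.5% at E90 and 7.15% at E120. For INHBA it was 32.4%, 23.9% and 3.64%. When every cell was thinned to 2000 UMIs, the shares became 5.56%, 17.0% and 2.28% for TGFB2 and 9.02%, 14.2% and 2.19% for INHBA. INHBA was thus in more cells at E60 than at E90 before thinning and in fewer after it, and no order of E60 and E90 is read from these shares. In blood-like cells the thinned shares at E60, E90 and E120 were 1.34%, 14.3% and 0.84% for TGFB2 and 2.68%, 13.8% and 0% for INHBA, where 0 of 119 cells allows up to 3.05%. Blood-like cells had median depths of 8999, 3428 and 3834 UMIs.

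Cells were then grouped into classes by clusters of all 3 libraries together, with both members and the pathway genes described below left out of the genes that shaped the clusters. Of 38 clusters, 29 could be named from markers, and 33 drew over 90% of their cells from 1 library. Dermal-like cells made up 89.4% (E60), 10.2% (E90) and 1.50% (E120) of all UMIs, and epithelial-like cells 35.7% at E90 and 64.8% at E120. Unnamed clusters held 50.4% of UMIs at E90 and 29.8% at E120. The E60 library held 2 epithelial-like cells, too few for a level.

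Among classes of at least 50 cells, INHBA was highest in dermal-like cells in all 3 libraries. The dermal-like level was 52.6 CPM (50.8 to 54.5, 6245 cells) at E60, 267 CPM (249 to 286, 503 cells) at E90 and 439 CPM (405 to 475, 214 cells) at E120. With each cell classed by its own marker counts, the E90 and E120 levels were 188 CPM (176 to 201) and 196 CPM (179 to 214), whose intervals overlap. Classed in that way, 72 erythroid-like cells of E60 measured 51.7 CPM (37.2 to 69.8), beside 53.9 CPM in dermal-like cells. In the E90 library 52 mast-like cells so classed measured 172 CPM (124 to 231), which overlaps the dermal-like interval. By clusters, 14 erythroid-like cells of E60, too few for this ranking, measured 56.9 CPM (28.4 to 102). The E60 dermal-like level was therefore not set apart from that of erythroid-like cells. Of all INHBA UMIs, dermal-like cells held 97.5% (96.9 to 98.1) in the E60 library, 28.4% (26.7 to 30.1) in the E90 library and 84.4% (81.6 to 87.0) in the E120 library. At E120 these 214 cells were 3.10% of the library's cells. An INHBA UMI was found in 34.6%, 42.5% and 82.2% of dermal-like cells, and in 9.70%, 29.6% and 57.0% after thinning. Epithelial-like cells measured 68.6 CPM (63.7 to 73.7) at E90, inside the blood-like interval of that library, and 1.11 CPM (0.86 to 1.41) at E120. Endothelial-like cells measured 5.95, 49.3 and 1.06 CPM at the 3 stages, each overlapping or below the blood-like interval.

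TGFB2 came from more classes. At E60, dermal-like cells measured 32.4 CPM (31.0 to 33.9). At E90 they measured 104 CPM (93.4 to 117), and at E120 only 22.9 CPM (15.7 to 32.3). Epithelial-like cells measured 106 CPM (99.6 to 112) in the E90 library and 7.16 CPM (6.50 to 7.86) in the E120 one. Endothelial-like cells measured 16.6 CPM (11.8 to 22.7), 87.6 CPM (59.9 to 124) and 36.5 CPM (29.8 to 44.3). Mural-like cells, the contractile cells of vessel walls, measured 74.7 CPM (63.6 to 87.2, 222 cells) at E60. With each library clustered on its own, 142 mural-like cells of E60 measured only 10.6 CPM (5.93 to 17.5). At E120 mural-like cells measured 62.2 CPM (39.4 to 93.4, 64 cells). At E90 the dermal-like, epithelial-like and endothelial-like intervals all overlapped the blood-like one. At E120 mural-like and endothelial-like cells held the highest class levels, ahead of dermal-like cells, whose interval overlapped that of the endothelial-like cells.

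**Figure D1:**
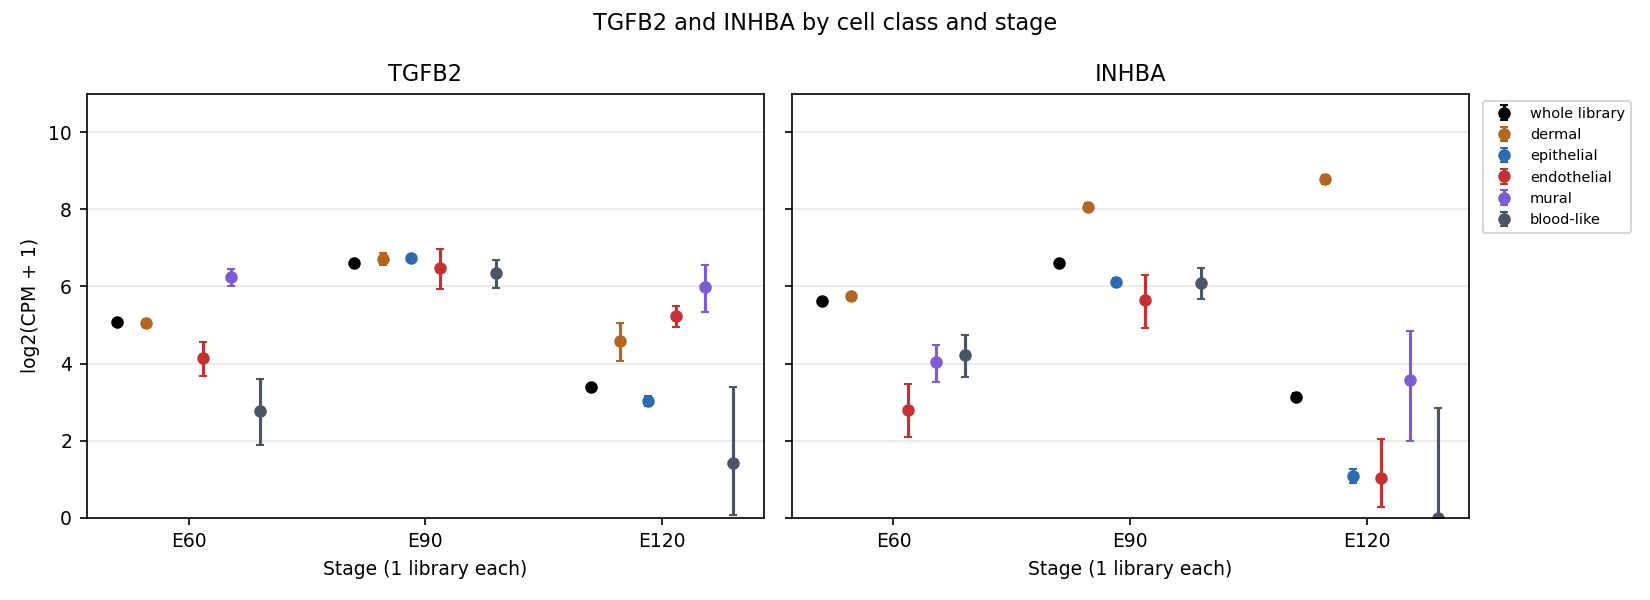
Level of TGFB2 (left) and INHBA (right) as log2(CPM + 1) in the whole library and in cell classes of at least 50 cells at each stage, with blood-like cells as the level in cells that should lack the genes. Points are sums over cells of 1 library and bars are exact 95% Poisson intervals. Dermal-like INHBA stands at 52.6, 267 and 439 CPM at the successive stages, while at E90 TGFB2 lies near the blood-like 79.9 CPM in every class.

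Within dermal-like cells from E60 to E90, the log2 ratio was 1.66 for TGFB2 and 2.32 for INHBA, where 34.6% of genes tested in these cells were at least 2-fold higher and the median gene was at 0.46. From E90 to E120 it was -2.14 for TGFB2, where 19.2% of genes were at least 2-fold lower, and 0.71 for INHBA, short of 2-fold. When each cell was classed by its own marker counts instead of its cluster, the latter became 0.05, so no difference in dermal-like INHBA between E90 and E120 is read from it. Under median-of-ratios scaling the E60 to E90 value for TGFB2 became 0.82, short of 2-fold, with the median gene at -0.36. From E60 to E120 the dermal-like fold for INHBA was the largest of its 3, 3.04 on the log2 scale, where 25.1% of genes were at least 2-fold higher. Own-marker classes gave 53.9 CPM at E60 and 196 CPM at E120, a smaller difference than the 52.6 and 439 CPM of the clusters. Within epithelial-like cells from E90 to E120 the log2 ratio was -3.71 for TGFB2 and -5.05 for INHBA. There 29.5% of genes were at least 2-fold lower. Over E60, E90 and E120 the blood-like level itself was 5.84, 79.9 and 1.69 CPM for TGFB2. For INHBA it was 17.5, 67.2 and 0 CPM. The class ratios are not corrected for these levels, and how much of each ratio is free RNA was not tested. A lower class level can reflect fewer expressing cells, less RNA per cell or less free RNA. The kinds of cells inside a class also differed between stages, so the classes were next taken apart.

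**Figure D2:**
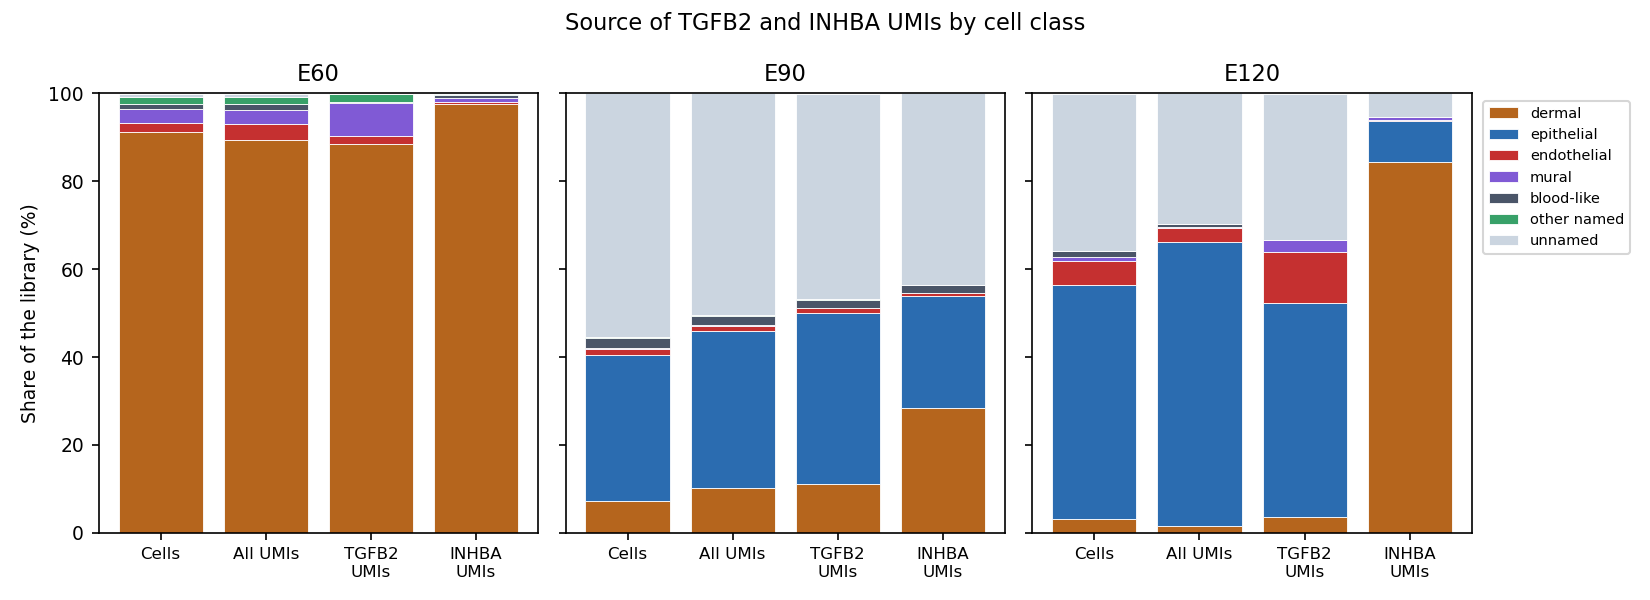
Share of cells, of all UMIs, of TGFB2 UMIs and of INHBA UMIs held by each cell class, in percent of the library, at E60, E90 and E120. At E120 dermal-like cells hold 1.50% of all UMIs but 84.4% of INHBA UMIs, while TGFB2 UMIs are spread over epithelial-like, endothelial-like and unnamed clusters.

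Each library was also clustered on its own, which gave 23 clusters at E60, 25 at E90 and 27 at E120, of which 21, 18 and 18 could be named. Clusters are called here by their leading genes. Clusters of at least 30 cells whose interval lay wholly above the blood-like interval numbered 7 of 22 for TGFB2 and 12 of 22 for INHBA at E60, the erythroid-like cluster being 1 of the 12. They numbered 6 of 25 and 7 of 25 at E90, and 7 of 25 and 4 of 25 at E120. At E120 the 4 INHBA clusters held 9.32% of cells and 94.5% of INHBA UMIs. At E60 the 12 INHBA clusters held 81.9% of cells and 93.1% of INHBA UMIs, but also 80.3% of all UMIs, whereas the 4 clusters of E120 held 4.42% of all UMIs. Of the 12, only the TNMD cluster described below, at 114 CPM, had a level above the erythroid-like limit of 76.1 CPM. The 7 TGFB2 clusters at E60 held 30.5% of cells and 87.5% of TGFB2 UMIs, and the 7 at E120 held 26.3% of cells and 75.3%. At E90 the 6 TGFB2 clusters held 13.8% of cells and 29.3% of TGFB2 UMIs.

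In E60 dermis the 2 genes divided the fibroblasts differently. INHBA was at 74.9 CPM (69.1 to 81.0) in the 963 dermal-like cells led by TMEM35A and RCAN2, at 72.7 CPM (66.3 to 79.7) in the 711 led by CHN1, and at 46.4 CPM (41.0 to 52.4) in the 719 led by DKK1 and CXCL14. In the same clusters TGFB2 was at 4.13 CPM (2.86 to 5.76), 2.82 CPM and 1.61 CPM, all overlapping the blood-like level. The clusters led by TMEM35A and by CHN1 did not differ in INHBA beyond their intervals, and the DKK1 cluster was lower than both. All 3 INHBA levels lay below the upper limit of 76.1 CPM of the erythroid-like cells.

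TGFB2 at E60 was high in other mesenchyme. The 561 dermal-like cells led by SMOC2 and MFAP5 measured 168 CPM (157 to 180) and alone held 38.1% of the TGFB2 UMIs of the library; their INHBA level was 64.9 CPM (57.9 to 72.5). In that cluster single cells held 0 to 8 TGFB2 UMIs with a median of 1, and 17.8% of them held 3 or more. A tendon- or cartilage-like cluster of 149 cells led by TNMD, THBS4 and COL2A1 measured 167 CPM (146 to 190) for TGFB2 and 114 CPM (96.9 to 133) for INHBA, the highest INHBA level of any E60 cluster and above the limit of the erythroid-like cells. A second cluster of 280 cells with tendon or cartilage markers, led by CCL11 and CAPN6, measured 134 CPM (119 to 149) for TGFB2 and 16.5 CPM (11.7 to 22.6) for INHBA, the latter inside the blood-like range. Against blood-like cells, TGFB2 was 28.8-fold higher (15.1 to 63.3) in the SMOC2 cluster and 28.6-fold (14.8 to 63.3) in the TNMD cluster. In the CCL11 cluster it was 22.9-fold (11.9 to 50.6) higher. A further 108 cells with 6 of 8 tendon or cartilage markers stood at 17.4-fold (8.88 to 39.0). The TNMD and CCL11 clusters also held 6 of 8 and the SMOC2 cluster 5 of 8, so these markers do not set the SMOC2 cluster apart.

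The highest TGFB2 level at E60, 223 CPM (186 to 264), was in 66 unnamed cells led by ITGA7, IGFBP2 and MEOX2, where INHBA measured 13.5 CPM (5.82 to 26.6). Skeletal muscle-like cells, led by ACTC1, MYLPF and MYOG, measured 92.1 CPM (66.9 to 124) for TGFB2 and 8.37 CPM for INHBA. The mural-like level of 74.7 CPM at E60 depended on the clustering: clustered within the library, the 142 mural-like cells measured 10.6 CPM (5.93 to 17.5), overlapping blood-like cells. ITGA7 and IGFBP2, which led the 66 unnamed cells, were also among the leading genes of the joint mural-like cluster. How many of the 66 cells that cluster held was not counted, so 74.7 CPM is not read as a level of vessel-wall cells. The E60 cluster labelled by condensate or papilla markers (5 of 18 found) had 40 cells, with 1 TGFB2 UMI and 15 INHBA UMIs. INHBA stood at 48.8 CPM (27.3 to 80.5) there, within the range of the other E60 fibroblasts. The label is weak, because the SMOC2 cluster held 4 of 18 of these markers and the TMEM35A cluster 3 of 18.

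**Figure D3:**
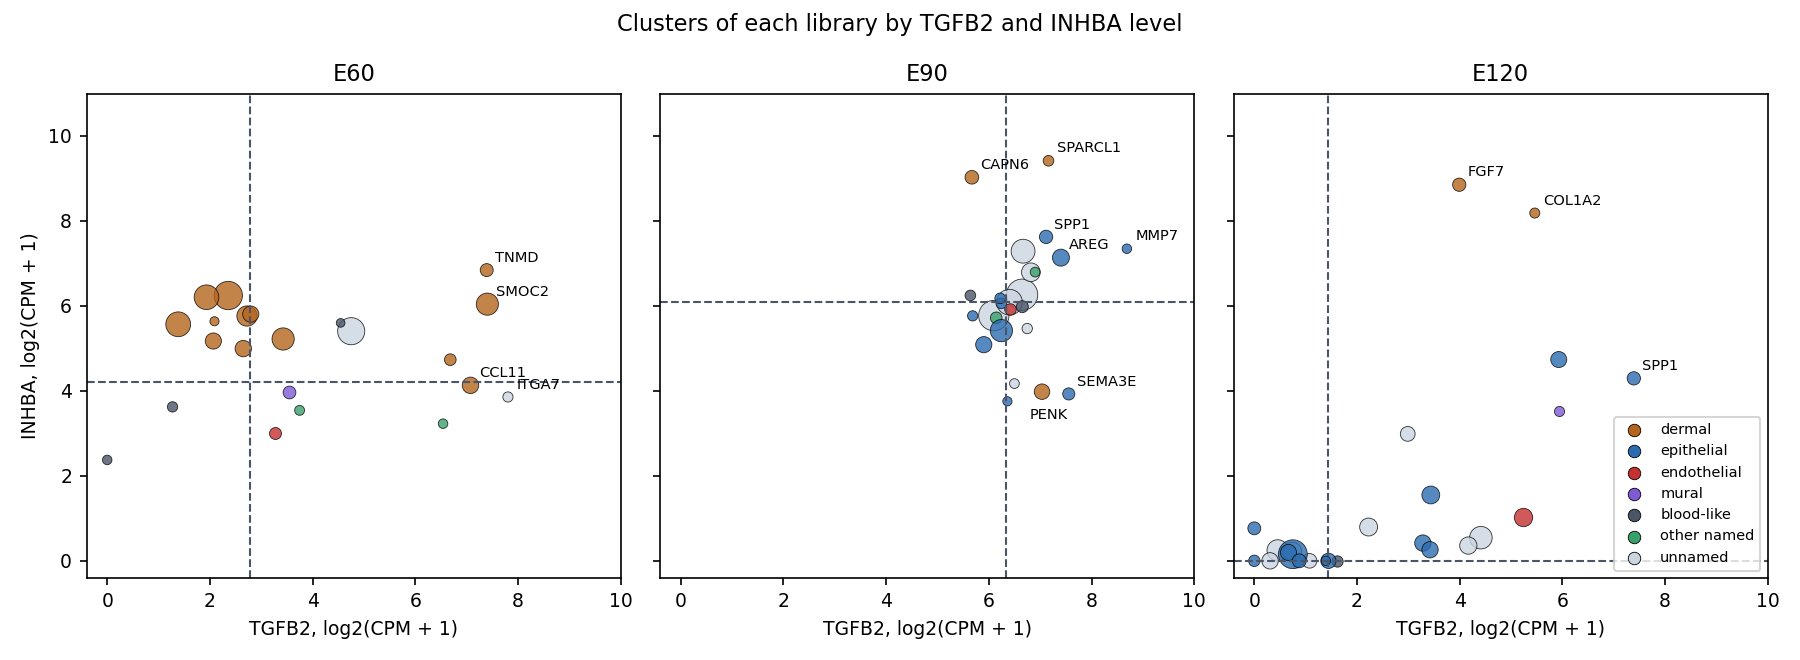
TGFB2 against INHBA level, both as log2(CPM + 1), in each cluster of at least 30 cells of each library clustered on its own. Point area grows with the number of cells, dashed lines are the blood-like level of that library, and labels are leading genes. At E60 the ITGA7, SMOC2, TNMD and CCL11 clusters lie far right on the TGFB2 axis; at E90 most clusters crowd at the crossing of the dashed lines with the CAPN6 and SPARCL1 clusters high in INHBA; at E120 the FGF7 and COL1A2 clusters stand apart in INHBA and the SPP1 and KRT14 cluster in TGFB2.

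At E90 the condensate or papilla-like cells stood apart in INHBA. A cluster of 79 dermal-like cells led by SPARCL1, BMP3 and SOX18, with 7 of 18 condensate or papilla markers, measured 682 CPM (611 to 760). INHBA itself was among its 10 leading genes. A cluster of 172 cells led by CAPN6, SPON1 and SOX18, with 9 of 18 of those markers, measured 521 CPM (474 to 572). Their intervals do not overlap, and they lay 10.2-fold (7.58 to 13.8) and 7.76-fold (5.82 to 10.5) above the blood-like cells. Single cells of the first held 0 to 24 INHBA UMIs with a median of 3, and those of the second 0 to 15 with a median of 2. Together these 251 cells held 780 INHBA UMIs, 26.9% of the library's, and 112 TGFB2 UMIs, whereas the blood-like cells held 53 and 63.

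TGFB2 differed between those clusters. It measured 142 CPM (111 to 180) in the SPARCL1 cluster and 49.9 CPM (36.1 to 67.2) in the CAPN6 cluster, the latter at 0.62 times (0.41 to 0.94) the blood-like level. The other named dermal cluster of E90, 241 fibroblasts led by PENK, OGN and ASPN with 1 of 18 condensate or papilla markers, paired TGFB2 above the blood-like interval with INHBA below it. Its TGFB2 level was 130 CPM (114 to 149) and its INHBA level 14.8 CPM (9.58 to 21.8), 0.22 times (0.13 to 0.36) the blood-like level. An unnamed cluster of 661 cells led by PENK, NOVA1 and PTH1R measured 155 CPM (140 to 172) for INHBA and 101 CPM for TGFB2.

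In E90 epithelium the highest TGFB2 level was 412 CPM (328 to 510), in 49 cells led by MMP7, CSTA and CALML5, where the median cell held 2 TGFB2 UMIs. It was 5.15-fold (3.67 to 7.26) above blood-like cells. This MMP7 cluster carried 10 of 10 suprabasal and 4 of 9 basal or outer root sheath markers. The AREG cluster carried 8 of 10 and 3 of 9, and the LYPD2 cluster 10 of 10 and 1 of 9. Clusters with suprabasal markers thus stood both above and at the blood-like level. The 122 epithelial-like cells led by SEMA3E and PTHLH measured 187 CPM (159 to 219), the 303 led by AREG and KRT17 168 CPM (147 to 192), and the 162 led by SPP1 with basal or outer root sheath markers 138 CPM (112 to 167). The intervals of neighbours in this order overlap, except for the first. The main basal cluster, 564 cells led by IGFBP6 and COL17A1, measured 74.9 CPM (64.4 to 86.6), and the 270 suprabasal-like cells led by LYPD2 and KRT4 58.8 CPM (46.1 to 73.9), both overlapping the blood-like level.

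INHBA in E90 epithelium was at 196 CPM (166 to 231) in the SPP1 cluster, 162 CPM (111 to 227) in the MMP7 cluster and 140 CPM (120 to 161) in the AREG cluster, between 2.08-fold and 2.92-fold above blood-like cells. In the SEMA3E cluster it was 14.2 CPM (7.35 to 24.9), 0.21 times (0.10 to 0.40) the blood-like level. That cluster therefore paired a high TGFB2 level with an INHBA level below the blood-like one, as the PENK and OGN fibroblasts did.

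At E120 INHBA was mostly in papilla-like cells. The 159 dermal-like cells led by FGF7, APOD and RSPO2, with 14 of 18 condensate or papilla markers, measured 461 CPM (423 to 502) and held 72.5% of the library's INHBA UMIs. The blood-like interval of that library ended at 6.24 CPM. Single cells held 0 to 15 INHBA UMIs with a median of 3, and 50.9% held 3 or more. A further 63 dermal-like cells led by COL1A2, COL1A1 and ACTA2, with 13 of 18 papilla markers and 4 of 8 tendon or cartilage markers, measured 290 CPM (236 to 353) and held 13.9%. The remaining clusters above the blood-like interval were epithelial: 25.7 CPM (18.0 to 35.6) in 261 cells led by CST6, with 9 of 9 basal or outer root sheath and 6 of 10 suprabasal markers, and 18.6 CPM (11.8 to 28.0) in 160 cells led by SPP1 and KRT14, with 9 of 9 and 4 of 10. The INHBA level of the E120 papilla-like cells was lower than that of the SPARCL1 cluster of E90. The interval of the E120 cells overlapped that of the CAPN6 cluster. These levels are not corrected for the blood-like level, which was 67.2 CPM at E90 and 0 CPM at E120.

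TGFB2 at E120 was highest in basal or outer root sheath-like epithelium. The 160 cells led by SPP1, KRT14 and SOX9 measured 167 CPM (145 to 191) and held 23.2% of TGFB2 UMIs from 2.32% of cells, with 0 to 14 UMIs per cell and a median of 0. This level overlapped those of the AREG, SEMA3E and SPP1 clusters of E90, but the blood-like levels of the libraries differed. It was 98.6-fold (17.5 to 3913) above the blood-like cells of E120, which held 1 TGFB2 UMI. The E90 clusters were 2.11-fold, 2.35-fold and 1.72-fold above theirs. The CST6 cluster measured 59.9 CPM (47.8 to 74.2) and mural-like cells 60.5 CPM (38.4 to 90.8), which did not differ beyond their intervals. Endothelial-like cells measured 36.6 CPM (29.9 to 44.3) and the COL1A2 cluster 43.1 CPM (24.1 to 71.1). The papilla-like FGF7 cluster measured 14.9 CPM (8.68 to 23.9), whose interval reached into that of the blood-like cells. Its ratio to the blood-like level was 8.81 (1.38 to 368), with 1 TGFB2 UMI in the blood-like cells.

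Hair shaft- and inner root sheath-like clusters of E120 had low CPM levels of both genes. Over 8 such clusters, 2478 cells in all, TGFB2 measured 3.67 CPM (3.14 to 4.26) and INHBA 0.34 CPM (0.19 to 0.55). These clusters held 19.5% of the library's TGFB2 UMIs and 2.20% of its INHBA UMIs. Within them, inner root sheath-like cells led by KRT27 and KRT71 measured 8.74 CPM (6.53 to 11.5) for TGFB2, and the hair shaft-like cells led by HS3ST2 and KRT35 0.68 CPM (0.35 to 1.19). An unnamed cycling cluster of 582 cells led by TOP2A and CENPF measured 20.3 CPM (17.4 to 23.5) and held 19.9% of TGFB2 UMIs, and one of 316 cells led by SHH and DCN 17.0 CPM (13.0 to 21.9). At E90 the 1 hair shaft- or inner root sheath-like cluster, 42 cells, measured 81.3 CPM (53.1 to 119) for TGFB2, near the blood-like 79.9 CPM of that library. Clusters labelled suprabasal-like by their leading genes measured 57.0 CPM at E90 and 19.7 CPM at E120. Those labelled basal or outer root sheath-like measured 89.7 and 167 CPM. At E90 these labels left out the SEMA3E cluster, with 9 of 9 basal or outer root sheath markers. They also left out the MMP7 cluster, with 10 of 10 suprabasal markers. The E120 suprabasal label joined the CST6 cluster, with 9 of 9 basal or outer root sheath markers, to 146 cells with 0 TGFB2 UMIs. No stage change is therefore read from these labels.

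UMIs of both genes in the same cell were about as frequent in dermal-like cells as the product of their separate shares. In E60 dermal-like cells 333 cells held UMIs of both, where the product of the shares gives 347.9. The counts were 65 and 68.9 in E90 dermal-like cells, and 17 and 17.3 in E120 dermal-like cells. Over the whole E120 library 34 cells held both, where the product gives 17.9. In epithelial-like cells the counts were above the product, 198 and 161.4 at E90 and 8 and 2.74 at E120, and after thinning 65 and 51.3, and 3 and 0.26.

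The pathway genes, TGFB2 and INHBA included, were taken from lists of ligands, latency and activation factors, receptors, SMADs, inhibitors and targets. Of 77 listed symbols, older names included, 69 were in the table and the others were not analysed here. Besides TGFB2 and INHBA, the text below gives a blood-like level for only some of these genes. A level without one is not set against free RNA. DCN, COL1A1, COL1A2 and POSTN are also dermal markers, and TAGLN and ACTA2 mural markers, so these 6 could move with the naming of classes. Of the 69 genes, 46 passed 10 CPM from E60 to E90, and 15 were at least 2-fold higher and 13 lower, where 21.3% of all genes were higher and 8.08% lower. From E90 to E120, 2 were higher and 33 lower of 46, where 9.99% and 24.2% of all genes were. From E60 to E120, 6 were higher and 26 lower of 39, where 19.4% and 21.5% were. The median log2 ratio of the listed genes was -1.68 from E90 to E120, beside -0.24 over all genes. Without TGFB2 and INHBA, 14 genes were higher and 13 lower of 44 from E60 to E90, and 2 higher and 31 lower of 44 from E90 to E120, with a median of -1.59.

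The balance of higher and lower genes depended on the scaling, for the pathway as for all genes. With the median of ratios, 10 listed genes were higher and 16 lower from E60 to E90, where 11.8% of all genes were higher and 19.4% lower. From E90 to E120 they were 2 and 24, where 22% of all genes were higher and 14.8% lower, and from E60 to E120 they were 6 and 26 under both scalings.

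Within dermal-like cells from E60 to E90, 21 of 47 were at least 2-fold higher and 6 lower, where 34.6% and 6.1% of all genes were. From E90 to E120, 15 of 48 were higher and 12 lower, where 11.2% and 19.2% were. From E60 to E120, 25 of 45 were higher and 9 lower, where 25.1% and 8.83% were. Within epithelial-like cells from E90 to E120, 1 of 46 was higher and 37 were lower, where 9.1% and 29.5% of all genes were. The epithelial-like median was -2.72 beside -0.40 over all genes. With the median of ratios, 13 were higher and 12 lower in dermal-like cells from E60 to E90 (14.1% and 29.2% of all genes), 16 and 10 from E90 to E120 (13.3% and 15.4%), and 17 and 15 from E60 to E120 (13.6% and 21.5%). In epithelial-like cells they were 2 and 28 (27.6% and 15.1%).

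Among the other ligands, TGFB3, a close relative of TGFB2, measured 13.2, 14.6 and 65.1 CPM in dermal-like cells at E60, E90 and E120. At E60 TGFB3 was at 82.0 CPM in the TNMD cluster, 73.3 CPM in the CCL11 cluster and 45.8 CPM in the SMOC2 cluster, the 3 dermal clusters with the most TGFB2, and at 5.22 CPM in the TMEM35A cluster. In the E120 papilla-like FGF7 cluster TGFB3 measured 73.7 CPM and TGFB2 14.9 CPM. TGFB1 was higher in endothelial-like cells than in dermal-like cells at E60 and E120, with 105 CPM against 12.6 and 75.9 against 26.5, and its blood-like level was 71.4 and 179 CPM. INHBB, the beta B subunit of activin B, measured 155 CPM in the SPARCL1 cluster and 75.4 CPM in the CAPN6 cluster of E90, against 40.6 CPM in blood-like cells. At E120 INHBB was at 17.5 CPM in the papilla-like FGF7 cluster and 60.8 CPM in the basal or outer root sheath-like SPP1 cluster, the reverse order of INHBA.

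Among the factors that bind and activate the latent complex, LTBP1 measured 51.4, 94.1 and 279 CPM in dermal-like cells at the 3 stages. FBN2, a microfibril gene, measured 59.0, 146 and 182 CPM there. LTBP4 was at 26.1, 89.9 and 13.6 CPM, and MMP2, a matrix protease, at 779, 388 and 228 CPM. THBS1, whose product can activate latent TGF-beta, measured 161 CPM in epithelial-like cells at E90, against 112 CPM in blood-like cells, and 7.36 CPM at E120. In blood-like cells at E60 and E90, LTBP1 was at 11.7 and 30.4 CPM, FBN2 at 7.78 and 40.6 CPM and LTBP4 at 9.08 and 35.5 CPM, each below its dermal-like level.

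The receptors that bind TGF-beta for signalling had few counts. TGFBR1 measured 2.43, 19.5 and 14.3 CPM and TGFBR2 0.895, 5.19 and 5.01 CPM in dermal-like cells at E60, E90 and E120. TGFBR2 was at 22.3 CPM in endothelial-like cells at E120. The co-receptor TGFBR3 measured 178, 244 and 32.2 CPM in dermal-like cells and 357 CPM in the E90 PENK and OGN fibroblasts, but also 137 and 110 CPM in blood-like cells at E60 and E90. In epithelial-like cells TGFBR3 was at 87.7 CPM at E90 and 0.26 CPM at E120. Of the activin receptors, ACVR1B measured 56.0 CPM at E90 and 42.2 CPM at E120 in epithelial-like cells, against 21.1 and 13.6 CPM in dermal-like cells and 43.1 and 18.6 CPM in blood-like cells. ACVR2A measured 18.0 and 7.02 CPM and ACVR2B 16.3 and 12.1 CPM in epithelial-like cells. SMAD4, the shared partner of the signalling SMADs, was at 57.6 CPM in epithelial-like cells at E90 and 32.1 CPM at E120.

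Among inhibitors, BAMBI, a pseudoreceptor without kinase activity, measured 18.8 CPM in dermal-like cells at E60, 8.43 CPM at E90 and 2936 CPM at E120, and 3590 CPM in the E120 papilla-like FGF7 cluster. In E120 epithelial-like cells BAMBI was at 524 CPM, and in blood-like cells of that library at 232 CPM. FST, the activin trap, measured 31.5, 125 and 463 CPM in dermal-like cells at the 3 stages, with 521 CPM in the papilla-like FGF7 cluster. In blood-like cells FST was at 9.08, 171 and 6.77 CPM, so the dermal-like level of E90 was not above the background there. FST was also at 455 CPM in the E120 CST6 epithelial cluster and at 360 CPM in the E90 SEMA3E cluster, where INHBA was below the blood-like level. SMAD7, an intracellular inhibitor, measured 7.78, 13.6 and 91.6 CPM in dermal-like cells and 137 CPM in E120 blood-like cells, and FSTL3 at most 7.46 CPM. BGN, a proteoglycan that binds TGF-beta, was at 134, 23.4 and 368 CPM (313, 19.0 and 60.9 CPM in blood-like cells), and PMEPA1 at 11.8 CPM at E60 and 62.6 CPM at E90.

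Listed targets differed in both directions in dermal-like cells. With scaling by the total, from E60 to E90, 7 of 15 were at least 2-fold higher and 3 lower, and from E90 to E120, 6 were higher and 2 lower, beside the shares of all genes given above. BHLHE40, a transcription factor also induced by stress and hypoxia, measured 0.155 CPM in dermal-like cells at E60, 53.2 CPM at E90 and 218 CPM at E120, and CDKN1A, a cell-cycle inhibitor, 2.34, 25.3 and 175 CPM. In blood-like cells BHLHE40 was at 12.3, 152 and 601 CPM and CDKN1A at 22.1, 136 and 484 CPM, levels above those of the dermal-like cells at each stage. TGFBI measured 555 CPM at E60 and 414 CPM at E90, with a log2 ratio of -4.30 from E90 to E120, and TNC, a matrix protein, 629 CPM at E60 and 52.9 CPM at E90.

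**Figure D4:**
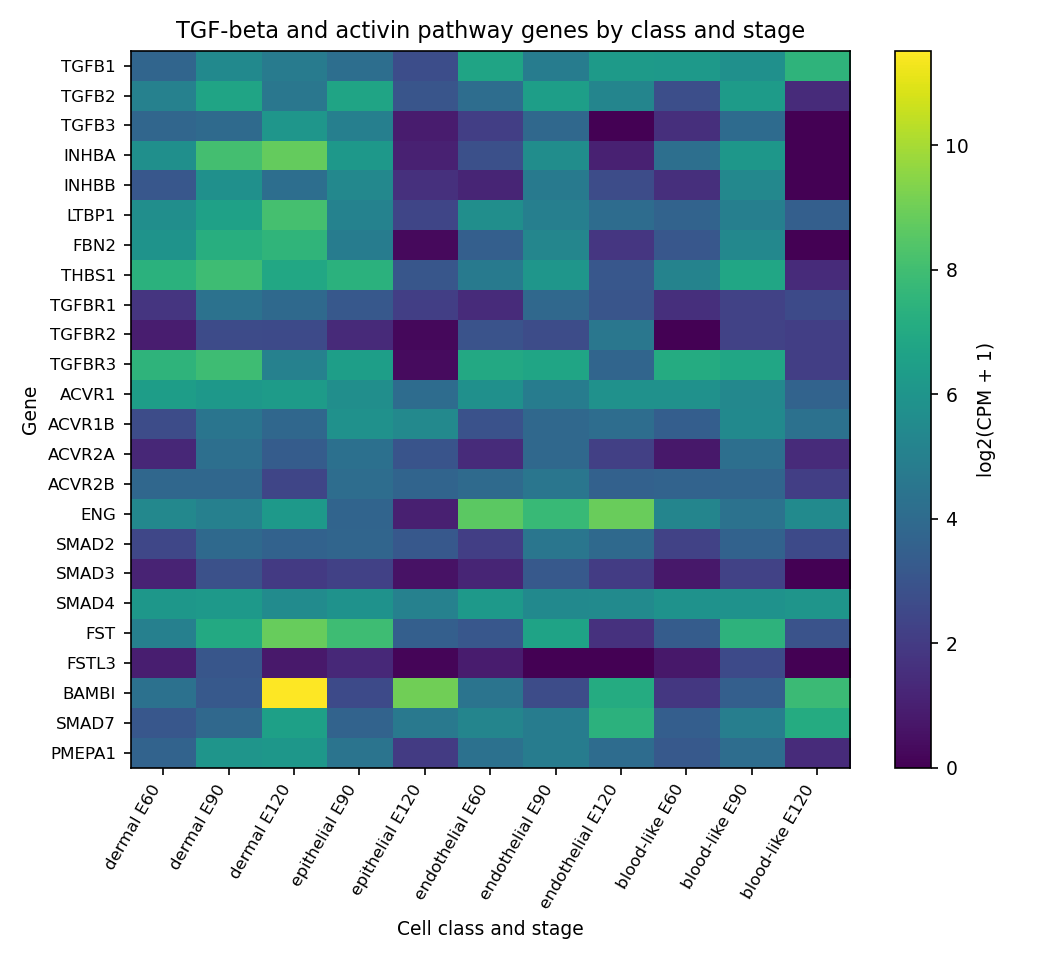
Level of TGFB2, INHBA and other pathway genes (rows) as log2(CPM + 1) in dermal-like, epithelial-like, endothelial-like and blood-like cells of each stage (columns). In dermal-like cells FST and LTBP1 are brightest at E120, where BAMBI reaches 2936 CPM, and at E90 INHBA is at 68.6 CPM in epithelial-like and 67.2 CPM in blood-like cells.

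The genes most like each member were taken as those with the highest Pearson correlation of log2(CPM + 1) over 37 clusters of at least 50 cells of the 3 libraries together, among 4131 genes that reached 50 CPM in any of them. Clusters of 1 library share its depth and free RNA, so these values are descriptions. For TGFB2 they were COL14A1 (r = 0.87), TXNIP (0.84), COL12A1 (0.84), RNF19A (0.81) and SHF (0.80). COL14A1 and COL12A1 encode fibril-associated collagens. For INHBA they were FGFR1 (0.93), THRB (0.93), FBN2 (0.93), NTN1 (0.93) and THBS1 (0.92). FGFR1 is a fibroblast growth factor receptor, THRB a thyroid hormone receptor and NTN1 a secreted guidance factor. The members themselves correlated at 0.64. COL14A1 and COL12A1 for TGFB2, and FBN2 and FGFR1 for INHBA, were also among the 5 with each library clustered on its own.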

How the data were processed

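Droplet libraries were made with 10x Genomics 3′ chemistry, per the labels' protocols, and Cell Ranger 3.0.2 is named in the submitters' processing notes. Aligner settings, genome build, gene annotation and cell filters are not given in the sources used here. The values deposited by the authors were natural log values, ln(1 + value scaled to 10000 per cell), as the values themselves showed. UMI counts were recovered by inversion: 100% of nonzero values were whole multiples of the smallest value of their cell within 0.01, which assumes that this value is 1 UMI. The table held 20676 cells, 971 more than the 19705 of the design text; all were kept. Of 16739 genes, 12709 carried a symbol, and both members matched the RefSeq list of assembly ARS1.2, used for names only. Total UMIs were 65049552 at E60, 30277663 at E90 and 93403291 at E120.

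Counts were summed per library, class or cluster and scaled to 1000000 (CPM). Stages were compared as log2 ratios of CPM + 1, later over earlier, with genes tested where the higher sum had at least 10 CPM; this script was tested on simulated data. Clusters came from 2000 variable genes, 30 principal components, 20 neighbours and Leiden resolution 1 (leidenalg 0.10.2, igraph 0.11.9, scikit-learn 1.9.0, numpy 2.4.6, scipy 1.17.1, Python 3.11.15), without correction between libraries. A cluster was named from at least 3 markers found in at least 10% of its cells at 2 times their level in the rest of the library, or, for epithelial and dermal classes, in blood-like cells. Dermal clusters also needed 2 collagens. Clusters with markers of another class leading, with 3 mitochondrial genes leading, or with low depth and no own marker leading stayed unnamed. This scoring was chosen with the data in view, and class differences from the study may come from it. Doublets were called by a script of Scrublet's algorithm with an assumed rate of 6%; it marked 259, 1 and 114 cells at E60, E90 and E120, so it did not work at E90, and none were removed.

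The members and all lists were chosen with earlier results of these data known. By rule, the text names the members, 14 fixed pathway genes, up to 4 genes per other list with the largest ratio at 50 CPM or more in a comparison, and the 5 genes most correlated with each member. Clusters and their leading genes were singled out after their values were seen, and so were INHBB, TGFB3 and FST values in single clusters. Alternatives changed pseudocount, scaling, cell weights, cell filter, doublets, clustering, class assignment, thinning and thresholds.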

Additional observations from a re-analysis of the deposited data

How the results depend on the processing

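No log2 ratio of TGFB2 or INHBA changed sign under any alternative run. The dermal-like ratios of these genes from E60 to E120 were not among those run. The balance of higher and lower pathway genes and the order of E60 and E90 in cells with an INHBA UMI did change. Removing called doublets, or (added after the data were seen) the top 6% of cells by doublet score, moved none of 12 ratios beyond its counting interval. At E90 only 1 cell and 1.05% of simulated doublets were called. For ratios with E90 these removals therefore say little about doublets. Ratios below are log2 values. With a pseudocount of 10 CPM, TGFB2 over the whole library stood at 1.32 (E60 to E90), -2.45 (E90 to E120) and -1.13 (E60 to E120), and INHBA at 0.86, -2.58 and -1.71. In epithelial-like cells they stood at -2.75 and -2.82, and in dermal-like cells from E60 to E90 at 1.43 and 2.15. With 0.1 CPM, TGFB2 from E90 to E120 was -3.33, and INHBA -3.61 and, from E60 to E120, -2.62; epithelial-like INHBA was -5.83. With median-of-ratios scaling TGFB2 was 1.07 and -2.76 and INHBA 0.51 and -3.02 (E60 to E90, E90 to E120), epithelial-like values were -3.04 and -4.50, and dermal-like values from E60 to E90 were 0.82 and 1.48. With every cell weighted alike, TGFB2 was 1.44, -2.71 and -1.27, and INHBA from E90 to E120 and E60 to E120 was -2.42 and -1.47. Epithelial-like values were then -3.20 and -4.11, and dermal-like INHBA 2.57 (E60 to E90) and 0.53 (E90 to E120). With the filter on genes and mitochondrial share, TGFB2 was 1.71 and -3.42, INHBA 1.20 and -3.66, epithelial-like TGFB2 -3.90, and dermal-like INHBA 2.15 and 0.89.

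With classes from each cell's own markers, dermal-like INHBA was 1.79 (E60 to E90) and 0.054 (E90 to E120) and dermal-like TGFB2 -3.01 (E90 to E120). Dermal-like cells then held 88.9%, 31.1% and 68.9% of INHBA UMIs at the 3 stages and 77.9% of TGFB2 UMIs at E60, and epithelial-like cells 49.4% of TGFB2 UMIs at E90. At Leiden resolution 2 dermal-like cells held 88.8% of INHBA and 79.1% of TGFB2 UMIs at E60, and epithelial-like cells 34.6% of TGFB2 UMIs at E90. With each library clustered on its own the same shares were 87.3%, 79.1% and 31.6%, and 52.9% for epithelial-like TGFB2 at E120. Thinning to 2000 UMIs gave shares of cells of 5.56%, 17.0% and 2.28% for TGFB2 and 9.02%, 14.2% and 2.19% for INHBA. With median-of-ratios scaling 10 pathway genes were higher and 16 lower from E60 to E90. Within classes (added after the data were seen) they were 13 and 12 in dermal-like cells from E60 to E90, 17 and 15 from E60 to E120, and 2 and 28 in epithelial-like cells. At 50 CPM, 7 were higher and 12 lower from E60 to E90, and 1 was higher and 19 were lower from E90 to E120. At 4-fold, 8 were higher and 4 lower from E60 to E90, and 1 was higher from E90 to E120, where the lower count is not given here. For these thresholds the numbers of genes tested and the shares of all genes are not given. Nothing about the pathway is therefore read from the counts at 50 CPM or at 4-fold. The cause of these shifts was not tested. No paired analysis was possible because each stage had 1 library. The E90 depth and the E90 blood-like level limit what can be read from E90 levels.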
